A study of Mus musculus with 6 samples.

Results

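The stomach lining meets drugs and plant compounds with food, and its cells carry enzymes that convert them. The genes described here encode 4 such groups: glutathione S-transferases, carboxylesterases, UDP-glucuronosyltransferases together with cytosolic sulfotransferases, and the cytochrome P450 families CYP2 and CYP3A. They were chosen by gene symbol, as genes whose symbol begins with Gsta, Gstm, Gstp, Gstt, Gstk, Gsto, Mgst, Ces1, Ces2, Ces3, Ugt1, Ugt2, Sult1, Cyp2 or Cyp3a and that have an array probe set annotated to that gene only. This rule, set with earlier results of these data known, gave 81 genes of the 12393 with such a probe set. A gene with several probe sets is read from the probe set whose mean over the arrays was highest. The symbol rule also took in 5 genes that are not xenobiotic enzymes and share only their first letters with CYP2: Cyp21a1 (adrenal steroid synthesis), Cyp24a1 and Cyp27b1 (vitamin D metabolism), Cyp26a1 (retinoic acid clearance) and Cyp27a1 (sterol oxidation). They are kept apart below.

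RNA came from the stomach antrum, the gland-bearing outlet part of the stomach, of 3 kinds of mice: Satin, Beige and C57/BL6 (here BL6), with 2 Affymetrix arrays each. Satin mice are known for a coat mutation in the forkhead transcription factor gene Foxq1, Beige mice for a coat mutation in the lysosomal trafficking gene Lyst, and BL6 is a standard inbred strain. The labels name Beige and BL6 as controls and speak of 2 mice of each strain. The labels give no age, sex, diet, treatment or genetic background, so a strain difference and the effect of a coat mutation cannot be told apart.

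Xenobiotic handling runs in stages. P450 enzymes in the endoplasmic reticulum insert oxygen and carboxylesterases split esters and amides, which exposes groups on the molecule. Transferases then attach glutathione, glucuronic acid or sulfate, and export pumps remove the products. These genes are best known from liver, and many are also expressed in intestinal epithelium, where nuclear receptors such as PXR and CAR and the factor NRF2 set their transcription.

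The values are array signals on a log2(signal + 32) scale after quantile normalization, so a difference of 1 is a doubling of that sum and changes of dim genes are understated. The deposited median signal was 74.15 and 58.6 for Satin, 49.5 and 49.0 for Beige and 47.6 and 38.2 for BL6. The ratio of 5′ to 3′ Gapdh control signal, a sign of RNA integrity, was 0.526 on BL6 array 1 and between 0.988 and 1.18 on the others. Tissue markers differed between arrays. The mean of 12 pancreatic acinar markers was 7.54 and 12.14 on Satin arrays 1 and 2, 7.94 and 10.47 in Beige and 7.58 and 12.97 in BL6. The defining gastric marker Gkn1 lay between 13.16 and 13.29 on all 6 arrays, and the antral hormone gene Gast between 10.21 and 12.23. The stomach label therefore has its markers present on every array. In tissue RNA, fewer cells of a type and less RNA per cell cannot be told apart.

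Of the 81 genes, 52 passed the filter on dim probe sets (a mean of at least 5.74) and entered the test. Against both controls, that is the mean of Beige and BL6, 4 of the 52 passed an adjusted p under 0.05 in limma's test, or 7.69%. Over all 9395 genes tested, 1.43% did, with 0.426% higher and 1.00% lower. Ces1g and Cyp2b10 rose in Satin antrum, and Cyp3a13 and Ces2a fell. The 52 include 4 genes whose control mean alone lay under the filter (Ces1g, Ces1e, Cyp2d26 and Ugt2a3), and Ces1g is among the 4 called. The median difference of the 52 was -0.01, against -0.00 over all genes, with 25 genes above 0 and 27 below. The other 48 of the 52 did not pass the test. Without normalization between arrays, which left the median gene 0.43 higher in Satin, the split of calls was 8 higher and 2 lower in place of 2 and 2. Scaling to hybridization controls, with a shift of 0.47, gave 13 higher and 2 lower.

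At an unadjusted p under 0.05, 15 of the 52 (28.8%) differed from both controls, against 12.5% of all genes. In 4 of the 52 genes (7.69%) both Satin arrays lay above all 4 control arrays, against 11.0% of all genes. In 13 (25.0%) both lay below, against 12.7%. These 13 were Ces1f, Ces2a, Ces2g, Cyp2c23, Cyp2d22, Cyp2j6, Cyp2s1, Cyp3a13, Gsta3, Gstk1, Gstt1, Mgst2 and Sult1b1. These counts are on the normalized scale. Of the 13, only Ces2a, Cyp2d22 and Cyp3a13 also lay below all 4 controls in the deposited signals, whose medians were higher in Satin. Gstt1 lay above all 4 there, at 420.9 and 365.7 in Satin, 310.5 and 357 in Beige and 267 and 249.4 in BL6.

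**Figure D1:**
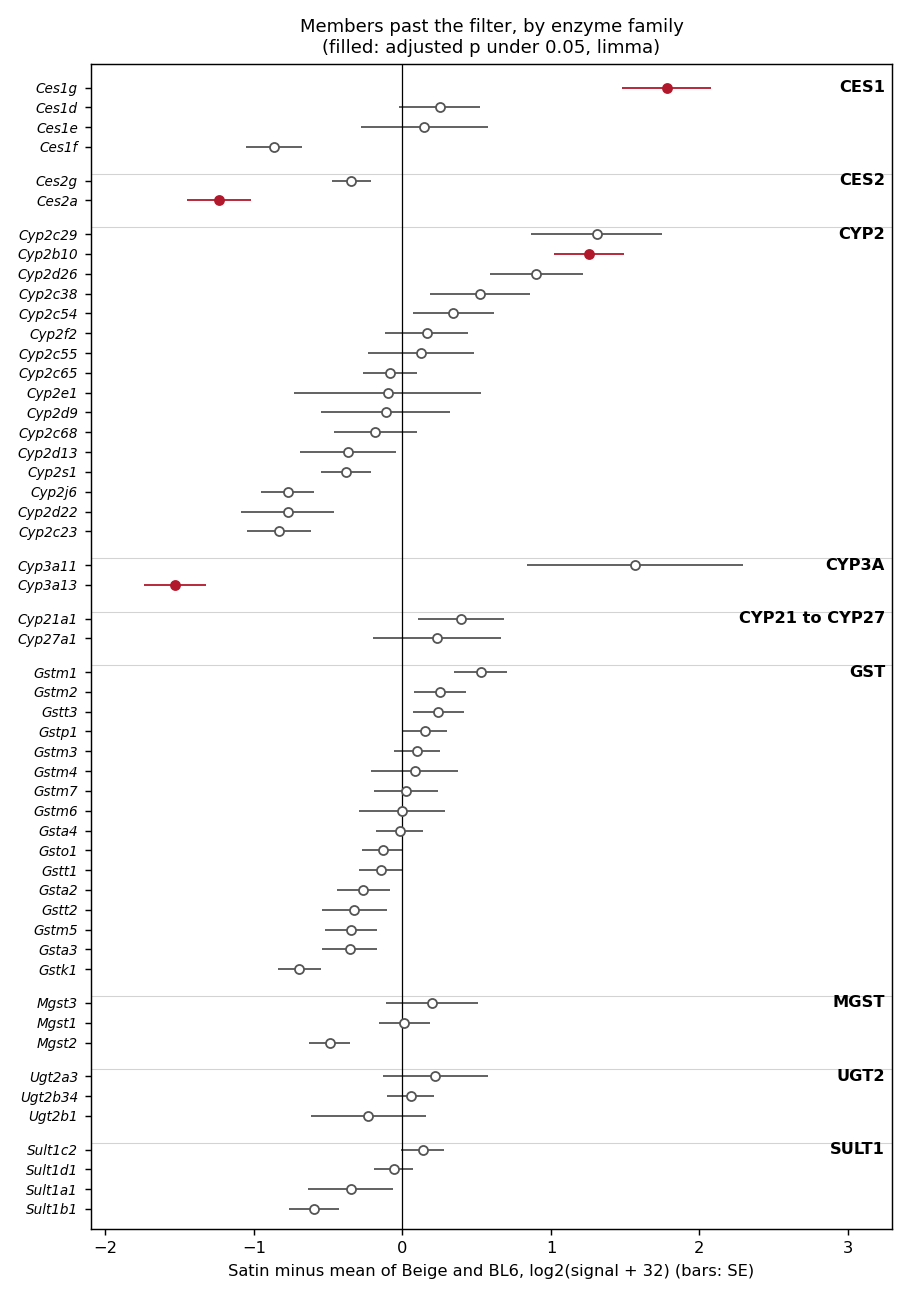
Satin minus the mean of Beige and BL6 on the log2(signal + 32) scale for the 52 genes past the filter, grouped by enzyme family, with bars showing the SE of the fitted difference (2 arrays per strain). Filled points are the 4 genes with an adjusted p under 0.05: Ces1g at 1.78 and Cyp2b10 at 1.26 lie above 0, and Cyp3a13 at -1.53 and Ces2a at -1.24 below it.

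Start regions of the 4 genes called against both controls are shown because the Satin mutation lies in a forkhead factor gene and because CAR and PXR, known regulators of Cyp2b and Cyp3a genes, bind repeats of a nuclear receptor half-site. Each window holds 250 bases before and 50 bases after the annotated start, from RefSeq on build GRCm38.p6, written 5′ to 3′ on the gene's strand with motif matches in capitals. The motifs searched on both strands were the forkhead core TGTTTA, the antioxidant response element TGACNNNGC and the half-site AGGTCA. Positions are chr8:93337160-93337459, minus strand, for Ces1g; chr8:104733753-104734052, plus strand, for Ces2a; chr7:25897408-25897707, plus strand, for Cyp2b10; and chr5:137921570-137921869, minus strand, for Cyp3a13.
Ces1g: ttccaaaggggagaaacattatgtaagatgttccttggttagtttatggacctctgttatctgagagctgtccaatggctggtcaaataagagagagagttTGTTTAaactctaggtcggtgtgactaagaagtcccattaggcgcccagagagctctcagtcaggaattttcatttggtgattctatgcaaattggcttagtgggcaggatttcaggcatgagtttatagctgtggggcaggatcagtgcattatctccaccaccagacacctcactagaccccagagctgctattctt
Ces2a: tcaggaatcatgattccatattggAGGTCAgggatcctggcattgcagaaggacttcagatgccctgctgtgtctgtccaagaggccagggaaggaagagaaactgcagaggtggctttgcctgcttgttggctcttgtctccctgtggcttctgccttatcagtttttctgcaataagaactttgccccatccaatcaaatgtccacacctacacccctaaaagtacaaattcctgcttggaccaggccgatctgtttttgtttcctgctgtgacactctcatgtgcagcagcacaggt
Cyp2b10: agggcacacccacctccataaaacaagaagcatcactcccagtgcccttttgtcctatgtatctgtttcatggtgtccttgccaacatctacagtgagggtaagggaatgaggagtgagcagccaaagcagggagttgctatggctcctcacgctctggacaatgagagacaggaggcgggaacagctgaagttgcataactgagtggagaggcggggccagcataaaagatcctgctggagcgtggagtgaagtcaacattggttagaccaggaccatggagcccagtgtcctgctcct
Cyp3a13: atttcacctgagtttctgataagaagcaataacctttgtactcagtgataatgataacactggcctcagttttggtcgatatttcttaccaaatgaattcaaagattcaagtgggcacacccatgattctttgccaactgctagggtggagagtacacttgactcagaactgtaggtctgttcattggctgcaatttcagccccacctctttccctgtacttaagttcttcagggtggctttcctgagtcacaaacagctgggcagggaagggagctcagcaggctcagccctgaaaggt

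The Ces1g window held 1 forkhead core, from base 102 on the printed strand, and the Ces2a window held 1 half-site, from base 25. The Cyp2b10 and Cyp3a13 windows held none of these letters. Of all 32851 windows in the table, 13.4% held the forkhead core, 12.4% the antioxidant element and 16.3% the half-site. Of the 79 windows of 68 genes described here, 22.8%, 7.59% and 25.3% did. Short motifs of this kind occur in many windows, and a match does not show binding. Windows this short, searched for exact letters, cannot show that a gene lacks such sites, because sequence further away was not searched.

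The carboxylesterase genes had 1 call in each direction, Ces1g higher and Ces2a lower. The mouse Ces1 genes lie side by side on chromosome 8, in the order Ces1c, Ces1d, Ces1e, Ces1f and Ces1g with no protein-coding gene between them on GRCm38.p6, and 70 protein-coding genes separate Ces1g from Ces2a. Close copies in such clusters can share array signal, and whether they did was not tested.

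Ces1g encodes an esterase of the endoplasmic reticulum best known from liver, where it splits drug and lipid esters. Its probe set had 7.58 and 7.13 in Satin, 5.86 and 5.69 in Beige and 5.04 and 5.71 in BL6. The deposited signals behind these were 219 and 128 in Satin, 25.8 and 17.4 in Beige, and 1.1 and 14.4 in BL6. Both Satin arrays were above the filter level, while the control mean of 5.58 lay under it, so the gene was tested only because it was high in Satin.

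Ces1g was 1.78 ± 0.30 (SE) higher in Satin than in both controls (adjusted p = 0.0234). It was 1.98 higher against BL6 alone (adjusted p = 0.0409), and the difference of 1.58 from Beige did not pass the test (adjusted p = 0.0884). Leaving out Satin array 1 gave an adjusted p of 0.364, Satin array 2 0.0941, Beige array 1 0.111 and Beige array 2 0.106 against both controls. The call was also lost with no filter (adjusted p = 0.0518) and with no intensity trend (0.0523), and the call against BL6 was lost in 10 of 15 alternatives. Over 15 alternative settings that tested the gene, its adjusted p ran from 0.000355 to 0.364 and its difference stayed above 0.

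Ces2a, a carboxylesterase of the intestinal and hepatic endoplasmic reticulum, moved the other way. Its probe set had 6.87 and 7.37 in Satin, against 8.51 and 8.08 in Beige and 8.25 and 8.59 in BL6. The groups did not overlap. The Satin mean was 2.35-fold lower than both controls on this scale, a difference of -1.24 ± 0.21 (SE, adjusted p = 0.0265). Neither control alone gave a call, with differences of -1.17 from Beige (adjusted p = 0.0777) and -1.30 from BL6 (adjusted p = 0.0551). The call was lost without Satin array 1 (adjusted p = 0.305), Beige array 1 (0.155) or Beige array 2 (0.0792). It was also lost with median centring (0.0665), no filter (0.0515) or no intensity trend (0.131), with adjusted p from 0.0268 to 0.305 over the 16 alternatives.

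Ces1f, an esterase found in liver and fat, had 7.29 and 7.73 in Satin, 8.24 and 8.32 in Beige and 8.65 and 8.29 in BL6. The Satin arrays lay below all 4 controls, but the difference of -0.87 ± 0.19 did not pass the test (adjusted p = 0.0656). Ces2g had 9.78 and 9.69 in Satin, 10.05 and 9.98 in Beige and 10.22 and 10.06 in BL6, a difference of -0.34 ± 0.13 (adjusted p = 0.302) that was positive under both scalings that leave the Satin arrays brighter. Ces1d, a triacylglycerol hydrolase of liver and fat, differed by 0.25 and Ces1e by 0.15, with no call. Adipocyte markers differed between the same arrays. The mean of 10 adipocyte markers was 7.57 and 8.05 in Satin and between 6.83 and 8.11 in controls, and the defining marker Adipoq had 7.14 and 8.70 in Satin, 8.72 and 8.73 in Beige and 5.05 and 8.51 in BL6. Their part in the Ces1 values was not tested.

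**Figure D2:**
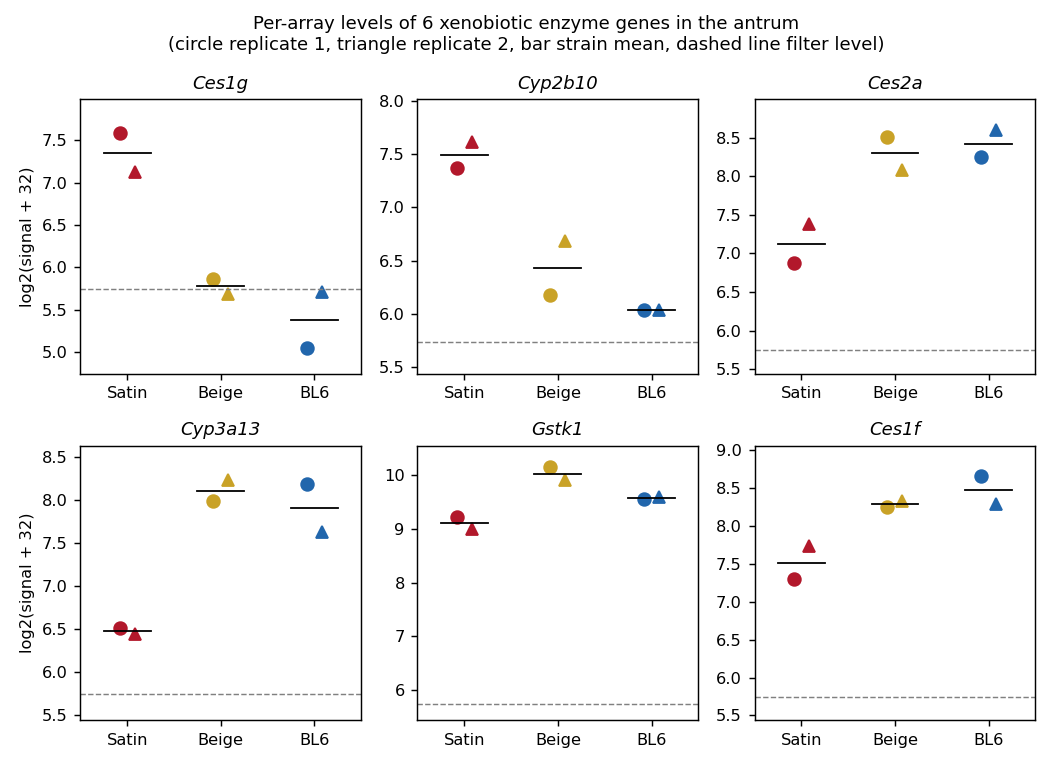
Array values on the log2(signal + 32) scale for Ces1g, Cyp2b10, Ces2a, Cyp3a13, Gstk1 and Ces1f, with Satin left of Beige and BL6, circles for replicate 1, triangles for replicate 2, bars for the strain mean and a dashed line at the filter level of 5.74. Ces1g and Cyp2b10 are high on both Satin arrays, and the other 4 genes are low on both, with no overlap with the 4 control arrays.

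Among the P450 genes, Cyp2b10 rose and Cyp3a13 fell. Cyp2b10 is the classical target of the receptor CAR and responds to phenobarbital in liver. Its probe set had 7.37 and 7.61 in Satin, 6.18 and 6.68 in Beige and 6.03 and 6.04 in BL6. Both Satin arrays lay above all controls, and the difference was 1.26 ± 0.24 (SE, adjusted p = 0.0376).

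Neither control alone gave a call for Cyp2b10, with 1.06 against Beige (adjusted p = 0.161) and 1.45 against BL6 (adjusted p = 0.0525). The other probe sets of the gene differed by 1.35 and 1.10, in the same direction, with adjusted p of 0.0758 and 0.241 in a fit over all probe sets. For the one at 1.10 the control mean of 5.45 lay under the filter, so that probe set was tested only because it was high in Satin. The call was lost without Satin array 1 (adjusted p = 0.278), Satin array 2 (0.324), Beige array 1 (0.143), Beige array 2 (0.0704) or BL6 array 1 (0.0535). It was also lost with no filter (0.0996), the mean of probe sets (0.0896) or no intensity trend (0.0851), and the adjusted p ran from 0.000639 to 0.324 over the 16 alternatives. Cyp2b9 and Cyp2b13, its neighbours on chromosome 7, stayed below the filter, with means of 5.71 and 5.40 in Satin and 5.57 for each in controls. Whether close copies shared signal with the Cyp2b10 probe sets was not tested. The gene for CAR itself, Nr1i3, was also below the filter, at 5.08 and 5.20 in Satin and between 5.08 and 5.82 in controls.

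Cyp3a13 is the mouse CYP3A gene best known outside the liver, in stomach and intestine. Its probe set had 6.51 and 6.44 in Satin, against 7.98 and 8.23 in Beige and 8.19 and 7.63 in BL6. The 2 Satin arrays differed by less than 0.1, and both lay more than 1 below every control array. The Satin mean was 2.89-fold lower than both controls on this scale, with a difference of -1.53 ± 0.21 (SE, adjusted p = 0.00902).

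It was the only gene of the 81 called in all 3 comparisons that include Satin, and these share the Satin arrays. The difference was -1.63 from Beige (adjusted p = 0.0179) and -1.43 from BL6 (adjusted p = 0.0390). The call against BL6 was lost in 10 of the 16 alternatives, with adjusted p up to 0.175, and the call against Beige in 5, with adjusted p up to 0.198. Against both controls, the adjusted p was 0.0710 without Satin array 1, 0.05005 without Satin array 2, 0.0623 without Beige array 1, 0.0671 without Beige array 2 and 0.0523 with no intensity trend. It ran from 0.00335 to 0.0710 over the 16 alternatives. Cyp3a13 stands alone on chromosome 5, with 122 protein-coding genes between it and Cyp3a16, while Cyp3a44, Cyp3a11 and Cyp3a25 are direct neighbours.

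Some markers of small intestine epithelium were low on the same Satin arrays as Ces2a and Cyp3a13. Over 18 such markers the mean level was 6.75 and 7.01 in Satin, 7.35 and 7.27 in Beige and 7.15 and 7.22 in BL6. Without Fabp2 it was 6.78 and 7.03 in Satin, 7.12 and 7.05 in Beige and 6.91 and 7.02 in BL6, so most of the gap came from that gene. Of the 13 markers past the filter, 9 differed below 0 and 4 above, and 2 fell (15.4%, against 1.00% of all genes called lower): Fabp2, the intestinal fatty acid binding protein (6.29 and 6.67 in Satin, 11.24 and 11.13 in Beige, 11.36 and 10.72 in BL6), and Rbp2, a retinol binding protein (difference -1.17, adjusted p = 0.0469). The 4 above 0, none called, were Apoa4 at 0.84, Fabp1 at 0.76, Apob at 0.61 and Slc5a1 at 0.35. The intestinal identity factors Cdx1 and Cdx2 were below the filter, with means of 5.06 and 5.22 in Satin and 5.27 and 5.31 in controls. The part of these cells in the fall of Ces2a and Cyp3a13 was not tested.

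Cyp3a11, the main hepatic CYP3A gene and a target of PXR, showed a different pattern. It had 5.76 and 9.11 on Satin arrays 1 and 2, 6.20 and 6.07 in Beige and 5.25 and 5.96 in BL6. Only Satin array 2 was high. The mean difference of 1.57 ± 0.73 did not pass the test (adjusted p = 0.422). Without Satin array 1 the difference was 3.20 with an adjusted p of 0.00300, a value that rests on the remaining Satin array.

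The same array was the highest for some other genes known from liver, though Beige array 2 was close to it for Cyp2e1. Cyp2c29 had 6.39 and 8.03 in Satin, 5.75 and 5.67 in Beige and 6.53 and 5.65 in BL6 (difference 1.31 ± 0.44, adjusted p = 0.240). Cyp2e1, which oxidizes ethanol, had 6.17 and 8.90 in Satin, 7.58 and 8.65 in Beige and 6.77 and 7.53 in BL6 (difference -0.10 ± 0.63). Cyp3a25, below the filter by its mean, had 5.24 and 6.83 in Satin and between 5.03 and 5.21 in controls. The 2 Satin arrays differed by more than 1 in 4 of the 52 genes (7.69%), against 2.75% of all genes: Cyp3a11, Cyp2e1, Cyp2c29 and Cyp2d9. All 4 were P450 genes and all were higher on Satin array 2. Cyp2d9 had 5.17 and 6.48 in Satin, 6.48 and 5.50 in Beige and 5.85 and 5.92 in BL6, so Beige array 1 was as high. Cyp2e1 was higher on array 2 in each strain.

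Liver markers were high on the same array. Over 14 liver markers the mean level was 5.92 on Satin array 1 and 7.69 on Satin array 2, 6.11 and 6.13 in Beige and 6.16 and 6.16 in BL6. Albumin (Alb), the defining liver marker, had 6.51 and 10.63 in Satin, 6.34 and 6.33 in Beige and 5.20 and 6.24 in BL6. Of the 36 CYP2 and CYP3A genes, 13 (36.1%) had their highest value on Satin array 2, against 11.2% of all 12393 genes. Beige array 1 was the highest for 11 (30.6%), against 21.3%. The 36 include 15 CYP2 and 3 CYP3A genes below the filter, where the highest array is read from values near background. Ces1g and Cyp2b10 were high on both Satin arrays. On Satin array 1 the liver marker mean was below that of every control array, while Alb at 6.51 and Apoc3 at 6.46 were above all 4 controls there. The part of liver RNA in the values of any of these genes was not tested.

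**Figure D3:**
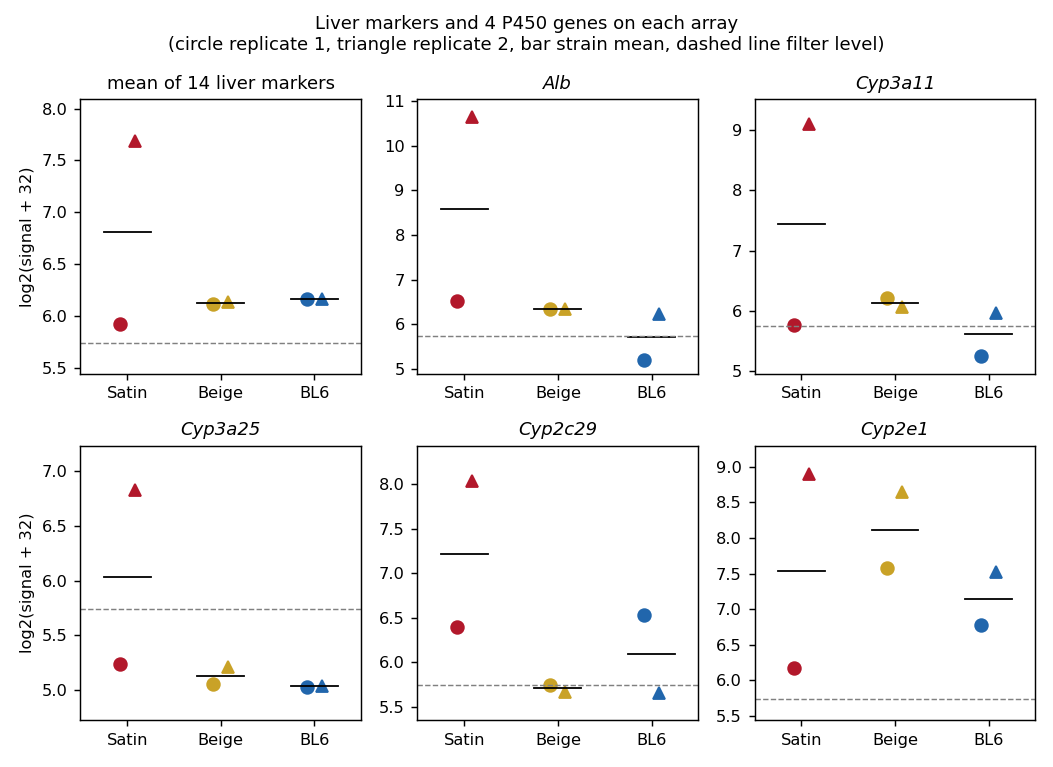
Mean of 14 liver markers, Alb and the P450 genes Cyp3a11, Cyp3a25, Cyp2c29 and Cyp2e1 on each array, on the log2(signal + 32) scale, with Satin left of Beige and BL6, circles for replicate 1, triangles for replicate 2, bars for the strain mean and a dashed line at the filter level of 5.74. Satin array 2 is the highest array in every panel, with Alb at 10.63 against 6.51 on Satin array 1. For Cyp2e1, Beige array 2 is close to it, at 8.65 against 8.90.

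Several P450 genes known from epithelium outside the liver were lower on both Satin arrays on the normalized scale, with no call. In the deposited signals, Satin overlapped the controls for Cyp2j6, Cyp2c23 and Cyp2s1. Cyp2j6, an intestinal P450, had 7.78 and 7.73 in Satin, 8.74 and 8.28 in Beige and 8.45 and 8.64 in BL6 (difference -0.77 ± 0.18, adjusted p = 0.0775). Cyp2c23, an arachidonic acid epoxygenase, had 6.98 and 6.81 in Satin, 7.96 and 7.61 in Beige and 7.93 and 7.40 in BL6 (difference -0.83 ± 0.22, adjusted p = 0.120). Cyp2s1, an epithelial P450, had 11.37 and 10.99 in Satin, 11.84 and 11.44 in Beige and 11.41 and 11.56 in BL6. Its difference of -0.38 ± 0.17 (adjusted p = 0.398) was positive under both scalings that leave the Satin arrays brighter. Cyp2c65, a P450 of the digestive tract, had 11.44 and 11.32 in Satin, 11.76 and 11.54 in Beige and 11.58 and 10.98 in BL6, and the groups overlapped.

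Cyp2d26 lay above all controls in Satin, at 6.41 and 6.65, against 5.39 and 5.99 in Beige and 5.42 and 5.71 in BL6, but did not pass the test (difference 0.90 ± 0.31, adjusted p = 0.253). Its control mean of 5.63 lay under the filter, so it too was tested only because it was high in Satin. The probe sets of Cyp2d22 differed from each other, at -0.77 for the one used and -0.07 for the other. Of the genes taken in by their letters only, Cyp21a1 differed by 0.39 ± 0.29 and Cyp27a1 by 0.23, with no call.

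No glutathione S-transferase passed the test against both controls, although 16 of 17 such genes passed the filter. Of the 16, 7 differed above 0 and 9 below, from -0.70 to 0.53, and 2 (12.5%) had an unadjusted p under 0.05, the same share as over all genes. Gsto1, the omega-class enzyme that also reduces dehydroascorbate, had 12.78 and 12.66 in Satin, 12.85 and 12.88 in Beige and 12.96 and 12.71 in BL6, a difference of -0.13 ± 0.14 (adjusted p = 0.774). Its second probe set differed by -0.71 (adjusted p = 0.0655 in a fit over all probe sets), so the probe sets of this gene disagree in size. Gsta4, which clears the lipid peroxidation product hydroxynonenal, differed by -0.02 ± 0.16, and Gstp1 by 0.15 ± 0.15.

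Gstk1, the kappa-class enzyme of mitochondria and peroxisomes, was the exception in the comparison with Beige. Its probe set had 9.22 and 8.99 in Satin, 10.15 and 9.91 in Beige and 9.55 and 9.60 in BL6. Both Satin arrays lay below all controls, and Beige lay above BL6. Gstk1 was 0.92 lower in Satin than in Beige (difference -0.92 ± 0.17, adjusted p = 0.0414). The differences from BL6 (-0.47, adjusted p = 0.305) and from both controls (-0.70 ± 0.14, adjusted p = 0.0551) did not pass the test. The call against Beige was lost without Satin array 1 (adjusted p = 0.144), Satin array 2 (0.205), Beige array 1 (0.497) or Beige array 2 (0.191). It was also lost as deposited (0.212), with median centring (0.226), hybridization scaling (0.173), no filter (0.0622), the mean of probe sets (0.0684) or no intensity trend (0.244). That is 10 of the 16 alternatives, over which the adjusted p ran from 0.0284 to 0.497.

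The mu-class genes Gstm5, Gstm7, Gstm6, Gstm3, Gstm2, Gstm1 and Gstm4 are neighbours on chromosome 3. Gstm1 had 11.29 and 11.04 in Satin, 10.30 and 10.84 in Beige and 10.60 and 10.82 in BL6. Both Satin arrays lay above all controls, but the difference of 0.53 ± 0.18 did not pass the test (adjusted p = 0.240). Its other probe sets differed by 0.60, 0.60 and 0.09. Without normalization between arrays, Gstm1, Gstm2 and Gstt3 were called higher in Satin, as were 1469 of all 9388 genes tested in that setting. Gstm5 differed by -0.35, the other way.

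Of the 3 microsomal transferases, none was called. Mgst2, which can form leukotriene C4, had 10.68 and 10.90 in Satin, 11.54 and 11.36 in Beige and 11.17 and 11.05 in BL6 (difference -0.49 ± 0.14, adjusted p = 0.143). Mgst3 had 11.81 and 11.83 in Satin, 12.25 and 11.94 in Beige and 10.46 and 11.83 in BL6 (difference 0.20 ± 0.31, adjusted p = 0.864), so BL6 array 1 was low and set its spread. That array also had the low Gapdh ratio given above, and the part of RNA integrity in the Mgst3 value was not tested. Mgst1 differed by 0.01.

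The conjugating enzymes for glucuronic acid and sulfate had no call in any comparison. Ugt2b34 had 11.39 and 11.17 in Satin, 11.13 and 11.21 in Beige and 11.50 and 11.06 in BL6, a difference of 0.06 ± 0.16 (adjusted p = 0.928). Ugt2a3 had 5.96 and 5.85 in Satin, 5.07 and 5.42 in Beige and 6.56 and 5.68 in BL6 (difference 0.22 ± 0.35, adjusted p = 0.866). The strains overlapped for both genes. The Ugt1a genes share their last exons, and no Ugt1 gene had a probe set of its own here.

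Sult1b1, a sulfotransferase of the gut that acts on thyroid hormones and phenols, had 9.22 and 9.38 in Satin, 9.95 and 10.01 in Beige and 10.08 and 9.57 in BL6. Both Satin arrays lay below all controls, and the difference of -0.60 ± 0.17 did not pass the test (adjusted p = 0.143). The Sult1b1 difference was -0.72 without BL6 array 2, -0.06 with arrays as deposited and -0.01 with scaling to hybridization controls. Its neighbour Sult1d1, which acts on catecholamines, differed by -0.06. Sult1c2 had 11.43 and 11.20 in Satin, 11.21 and 11.24 in Beige and 11.28 and 10.99 in BL6, a difference of 0.14 ± 0.14 (adjusted p = 0.775).

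Satin was also set against each control strain. Against Beige, 2 of the 52 genes (3.85%) were called, Cyp3a13 and Gstk1, both lower. Of all genes, 0.905% were called and 0.681% were lower. Against BL6, 2 (3.85%) were called, Cyp3a13 lower and Ces1g higher. Of all genes, 0.745% were called, 0.522% lower and 0.224% higher. At an unadjusted p under 0.05 the counts were 17 (32.7%) against Beige and 13 (25.0%) against BL6, with 10.5% and 12.6% of all genes.

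The control strains did not differ by any call. In Beige against BL6, 0 of the 52 genes and 0 of all 9395 (percent called 0) passed limma's test. At an unadjusted p under 0.05, 5 of the 52 (9.62%) and 5.15% of all genes differed. The 5 were Cyp2c38 at -1.05, Cyp2d13 at -1.03, Mgst3 at 0.95, Gstk1 at 0.45 and Sult1d1 at 0.35. Without BL6 array 2, Mgst3 was called at 1.60 (adjusted p = 0.0193), which then rests on BL6 array 1.

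The other 29 genes were below the filter and were not tested: 15 CYP2 genes, 3 CYP3A genes, 3 UGT2 genes, 2 SULT1 genes, Ces1c, Ces2e, Gstp3 and the prefix-only genes Cyp24a1, Cyp26a1 and Cyp27b1. Their array values ran from 5.02 to 6.83. The highest was Cyp3a25 on Satin array 2, and outside that array the highest was 6.77, for Sult1c1 on Beige array 1. Cyp2c39, a hepatic CYP2C gene, had 5.70 and 6.44 in Satin and between 5.13 and 5.23 in controls. At this signal a level near background and an absent transcript cannot be told apart.

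Partner genes of these enzymes were read from 6 lists, with genes taken from general knowledge of each step. Their counts stand beside 0.426% of all genes called higher, 1.00% called lower and 12.5% with an unadjusted p under 0.05. For glutathione synthesis and NRF2 targets, 19 of 22 listed genes were tested, 1 rose and 1 fell (5.26% each), and the median difference was 0.03. An unadjusted p under 0.05 was found for 8 of the 19 (42.1%). Both Satin arrays lay above all 4 controls in 4 genes and below them in 4 (21.1% each, against 11.0% and 12.7% of all genes). Nqo1, the NRF2-dependent quinone reductase, had 9.39 and 9.34 in Satin, 10.44 and 10.53 in Beige and 10.88 and 10.33 in BL6 (difference -1.18, adjusted p = 0.0109). Me1, the malic enzyme that supplies NADPH, had 11.51 and 11.74 in Satin, 10.92 and 11.02 in Beige and 10.80 and 10.66 in BL6 (difference 0.78, adjusted p = 0.0267). Both are textbook NRF2 targets, and they moved in opposite directions. The part of NRF2 in these values was not tested.

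Among sensors and their partners, 0 of 14 tested genes passed limma's test, 1 (7.14%) had an unadjusted p under 0.05 and the median was -0.05. Cyp1b1, a target of the aryl hydrocarbon receptor, differed by -0.93 (adjusted p = 0.167), and Nfe2l2, the gene for NRF2, by 0.41 (adjusted p = 0.406). Among 7 genes that supply electrons and haem to P450 enzymes, 0 passed and 1 (14.3%) had an unadjusted p under 0.05, with a median of 0.01. Cyb5b, a cytochrome b5 of the outer mitochondrial membrane, differed by 0.46 (adjusted p = 0.154), and Cyb5a, the microsomal form, by -0.21 (adjusted p = 0.635).

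In cosubstrate supply, 1 of 12 tested genes (8.33%) fell and the median was 0.01. Slc26a2, the sulfate importer that feeds sulfation, had 7.31 and 7.72 in Satin, 8.78 and 9.25 in Beige and 9.42 and 8.94 in BL6 (difference -1.58, adjusted p = 0.00849). The sulfate-activating enzyme genes Papss1 and Papss2 differed by 0.21 and 0.04, with no call. Among 8 tested genes of the export list, 1 (12.5%) was called, and the list median was -0.18. It was Slco2a1, a prostaglandin uptake carrier rather than an export pump, which fell by 0.92 (adjusted p = 0.0168).

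Among 18 tested genes of other hydrolases and conjugating enzymes, 3 fell (16.7%, against 1.00% of all genes), none rose and the median was -0.11, against -0.00 over all genes. Aadac, the arylacetamide deacetylase that hydrolyses drug amides and esters as carboxylesterases do, had 6.85 and 7.16 in Satin, 8.48 and 8.27 in Beige and 7.99 and 8.32 in BL6 (difference -1.26, adjusted p = 0.0134). Fmo5, a flavin-containing monooxygenase, had 6.90 and 6.38 in Satin, 8.16 and 7.83 in Beige and 7.86 and 7.48 in BL6 (difference -1.19, adjusted p = 0.0364). Ephx2, the soluble epoxide hydrolase, had 8.32 and 8.30 in Satin, 9.14 and 9.04 in Beige and 9.28 and 9.04 in BL6 (difference -0.81, adjusted p = 0.0301). In all 3 genes both Satin arrays lay below every control array.

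**Figure D4:**
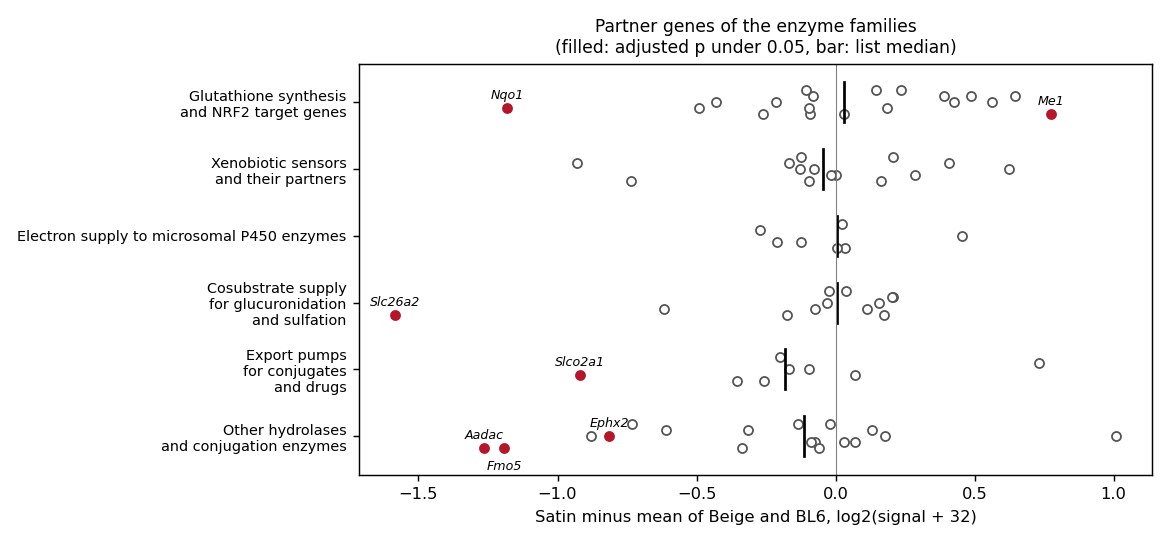
Satin minus the mean of Beige and BL6 on the log2(signal + 32) scale for the tested genes of 6 partner lists, 1 row per list, with filled points for an adjusted p under 0.05 and a bar at each list's median. Filled points lie below 0 for Nqo1, Slc26a2, Slco2a1, Aadac, Fmo5 and Ephx2 and above 0 for Me1, while the medians lie between -0.18 and 0.03.

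Markers of other cells of the antral wall also differed between strains. Over all 9395 genes, 4702 differed below 0, 1.00% were called lower and 0.426% higher. Of 15 smooth muscle markers, all differed below 0 in Satin and 4 (26.7%) fell (Des, Tpm2, Smtn and Actg2), with list means of 8.88 and 9.04 in Satin, 9.64 and 9.86 in Beige and 9.79 and 9.33 in BL6. Of 8 antral endocrine markers, 3 (37.5%) fell (Chgb, Gast and Chga), with list means of 7.80 and 7.87 in Satin, 8.89 and 8.79 in Beige and 8.68 and 8.79 in BL6. Of 11 pit cell markers, 2 (18.2%) fell: Muc5ac, the surface mucin (difference -4.32), and Krt20, a keratin (difference -1.63).

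Of 9 gland cell markers, 2 (22.2%) rose (Pga5 and Bpifb1), with list means of 11.70 and 11.09 in Satin, 10.57 and 10.26 in Beige and 10.17 and 10.23 in BL6. Of 11 tested myeloid markers, 1 (9.09%) rose, S100a8 at 1.85, while 4 differed above 0 and 7 below, with a median of -0.19. For 1 of the 11 the control mean alone lay under the filter. Of 7 tested squamous markers, none was called, and Krt5 had 6.64 and 6.27 in Satin, 5.27 and 6.62 in Beige and 5.72 and 6.08 in BL6. The part of these cell types in the values of the enzyme genes was not tested.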

How the data were processed

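Array values are linear intensities, 1 per probe set and array, as the authors deposited them in a table of 22690 probe sets. The labels' protocols name Trizol extraction and biotinylated cRNA. No source used here gives the summarisation or the scaling. Arrays were grouped by title. Whether each array holds RNA of 1 animal is not stated, so p-values measure the spread between arrays.

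Intensities were quantile normalized and converted to log2(signal + 32), and 64 control probe sets were dropped. Genes with a mean below 5.74, the level under which 30% of the 22626 other probe sets lay, were left out, which left 9395. limma 3.58.1 in R 4.3.3 (lmFit, eBayes with intensity trend, two-sided) was fitted once to 6 arrays with strain as factor (3 residual degrees of freedom, 9.24 moderated), with Benjamini-Hochberg adjustment over all genes tested and a call at an adjusted p under 0.05. The fit was tested on simulated data with independent noise of equal spread for every gene, a simpler setting than these arrays. The number of arrays limits the precision.

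The 81 genes, 6 partner lists and 10 marker lists were chosen with earlier results of these data known. Genes given with values on each array are those called in any comparison and, per family, the one with the highest mean and the one with the smallest p. Cyp3a11, Cyp3a25, Cyp2c29, Cyp2e1 and the other genes given with array values were added after their values were seen. From partner lists, up to 4 called genes or the 2 with the smallest p are named. There were 16 alternative settings, and 0 sample columns were left unused.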

Additional observations from a re-analysis of the deposited data

Results flagged for a closer look

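Probe sets that list 8 Ugt1a genes each belong to no gene of the families above by the rule. In 2 of these, both Satin arrays lay above all 4 control arrays, in data outside the main comparison. The first had 12.05 and 11.86 in Satin, 11.13 and 11.40 in Beige and 11.55 and 11.29 in BL6, a difference of 0.61 ± 0.14 (SE) with an adjusted p of 0.148 in limma. The other had 9.87 and 9.84 in Satin, 8.82 and 9.25 in Beige and 8.97 and 9.15 in BL6, a difference of 0.80 with an adjusted p of 0.102. Neither passed the test, which was run apart over 1292 probe sets without a single gene, of which 13 passed. A further probe set of the same 8 genes differed by 0.17 (adjusted p = 0.801), and its arrays overlapped between strains.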

How the results depend on the processing

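The 4 genes called against both controls kept their direction in every alternative that tested them (16, or 15 for Ces1g, which the 50% filter left out), while the number of calls moved with the setting and the cause was not tested. Calls against both controls, Beige and BL6 numbered 4, 2 and 2 among the enzyme genes and 134, 85 and 70 among all genes. With arrays as deposited they were 10, 4 and 14 among the enzyme genes and 1531, 191 and 1875 among all genes. Scaling to hybridization controls gave 15, 3 and 19, with 2271, 176 and 3023 among all genes. Median centring gave 1 enzyme gene against Beige, with 52 and 45 among all genes against Beige and BL6. With no filter they were 1, 1 and 0, with 43 and 33 among all genes against Beige and BL6. A pseudocount of 16 and the filter at 50% each gave 1 against BL6. The mean of probe sets gave 1 against Beige and 0 against BL6, with 37 and 22 among all genes. With no intensity trend they were 0, 0 and 0, with 34, 18 and 12 among all genes. For Beige against BL6, all genes gave 3 calls as deposited and 4 with hybridization controls, in place of 0.

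Leaving out 1 array at a time gave 0 to 8 enzyme genes against both controls, 0 to 3 against Beige, 0 to 3 against BL6 and 0 to 1 for Beige against BL6. Among all genes these were 29 to 293, 9 to 147, 21 to 221 and 0 to 12. A strain left with 1 array is assumed to vary like the others. Replicate numbers 1 and 2 occur in each strain, with no statement that they pair arrays. Deviations of same-numbered arrays correlated across genes at 0.188 for Satin and Beige, 0.270 for Satin and BL6 and 0.118 for Beige and BL6. With the replicate block, calls were 4, 2 and 0 among the enzyme genes: against BL6, Cyp3a13 had an adjusted p of 0.0590 and Ces1g 0.0657.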
